A study of Mus musculus with 6 samples.

Results

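Fibrillins and their partners form the elastic fibres and microfibrils of the extracellular matrix. The genes described here are Fbn1 and Fbn2 (fibrillins), Eln (elastin), Fbln1, Fbln2 and Fbln5 (fibulins), Mfap2 and Mfap5 (microfibril-associated proteins), and Ltbp1 and Ltbp2 (proteins related to the latent TGF-β binding proteins). They were picked by symbol from the 55487 genes of the count table, and all 10 of 10 were found and passed the filter on low counts. RNA was sequenced from mammary epithelial cells (MECs) of female BALB/c mice at 10 weeks of age, with 1 library for each of 3 wild-type and 3 IL-21isoTg mice. IL-21isoTg mice carry a transgene for a membrane-bound isoform of the cytokine IL-21 that is expressed in T cells, and the wild-type mice carry none. The promoter of the transgene and the number of founder lines are not given in the sources used here. MECs were what remained of digested mammary gland after magnetic removal of cells with CD45 (leukocytes), CD31 (endothelium) or CD140a (fibroblasts), and the mice were virgin, with the stage of the estrous cycle randomized.

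Fibrillins polymerize into microfibrils outside the cell. Elastin monomers are deposited on this scaffold with the help of fibulins and microfibril-associated proteins and are then crosslinked by lysyl oxidases, which gives ducts, vessels and skin their recoil. Microfibrils also hold latent TGF-β and BMPs in the matrix, the former through latent TGF-β binding proteins. In the mammary gland such fibres lie in the stroma around ducts, and their genes are typical of fibroblasts, mural cells (pericytes and vascular smooth muscle) and, for some, myoepithelial cells.

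The total count per library ran from 15902886 to 25719244. Il21 had 0, 0 and 37 counts in wild-type mice 1 to 3 and 795, 216 and 131 counts in IL-21isoTg mice 1 to 3, so wild-type mouse 3 was not free of it. A list of 14 salivary gland genes took between 5.00% and 39.5% of the counts, the highest share being that of IL-21isoTg mouse 3, which also had the smallest total. The epithelial markers were abundant, with a summed level of 5524 to 9036 CPM (counts scaled to library size after TMM normalization) for 12 luminal genes such as Krt8 and Krt18 and 1843 to 3479 CPM for 9 basal genes such as Acta2 and Krt17. Fibroblast transcripts were present in spite of the depletion. Their 10 markers, led by Col3a1 and Col1a1, summed to 2045, 3650 and 3313 CPM in wild-type mice 1 to 3 and 5258, 4548 and 4574 CPM in IL-21isoTg mice 1 to 3, which did not overlap. That sum leaned on collagen genes. Mean levels in wild-type and IL-21isoTg mice were 805.7 and 1528 CPM for Col3a1 and 572.2 and 1163 CPM for Col1a1. For Col1a2 they were 589.3 and 1059 CPM. Dcn, another abundant marker, was at 737.7 and 612 CPM, with overlapping groups.

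Genotypes were compared gene by gene in 1 fit of edgeR's quasi-likelihood model, and p-values were adjusted by Benjamini-Hochberg over the 17165 genes that passed the filter. The 10 genes were put together with this comparison already known. Their differences between the genotypes are therefore given as a description, with the standard error (SE) of the fit and without a test. In these bulk samples, fewer cells of a type and less RNA per cell cannot be told apart.

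Fbn2 encodes the fibrillin that is typical of developing tissue. It lies on the minus strand of chromosome 18 and has 65 exons in its longest annotated transcript. Fbn2 had 2029, 1272 and 1105 counts in wild-type mice 1 to 3 and 286, 526 and 69 counts in IL-21isoTg mice 1 to 3. As TMM-normalized CPM, wild-type mice 1 to 3 had 91.5, 61.1 and 49.7, and IL-21isoTg mice 1 to 3 had 11.9, 19.6 and 6.44. Every IL-21isoTg mouse lay below every wild-type mouse, and the lowest wild-type value was well above the highest IL-21isoTg value. The group means were 67.5 ± 21.6 CPM for wild-type and 12.6 ± 6.61 CPM for IL-21isoTg mice (SD, n = 3 each). The fitted log2 fold change was -2.40 (SE 0.41), or 5.28-fold lower. The lincRNA gene Gm26507, on the opposite strand, shares 129 bases of Fbn2 exon and was not analysed here. Without IL-21isoTg mouse 3, the library with the most salivary counts and the fewest Fbn2 counts, the log2 fold change was -2.10, and without wild-type mouse 3 it was -2.58.

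Fbn1 encodes the major fibrillin of adult tissue, and changes in its human counterpart cause Marfan syndrome. Its position is 125300594 to 125507993 on the minus strand of chromosome 2 (GRCm38), also with 65 exons in its longest transcript. Its level was 57.1, 85.1 and 68.2 CPM in wild-type mice 1 to 3 and 102.3, 118.8 and 160.4 CPM in IL-21isoTg mice 1 to 3. Each IL-21isoTg mouse exceeded every wild-type mouse, the reverse of Fbn2, with the highest value in the mouse that had the lowest Fbn2 level. The log2 fold change of Fbn1 was 0.86 (SE 0.23), from 70.1 ± 14.1 to 127.2 ± 29.9 CPM (SD, n = 3 each). Leaving out IL-21isoTg mouse 3 gave 0.66. The protein-coding gene Gm9913, annotated on the opposite strand, shares 2442 bases of exon with Fbn1. It had 19 to 91 counts per library where Fbn1 had 1267 to 3192, and whether reads were counted by strand is not given in the sources used here.

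**Figure D1:**
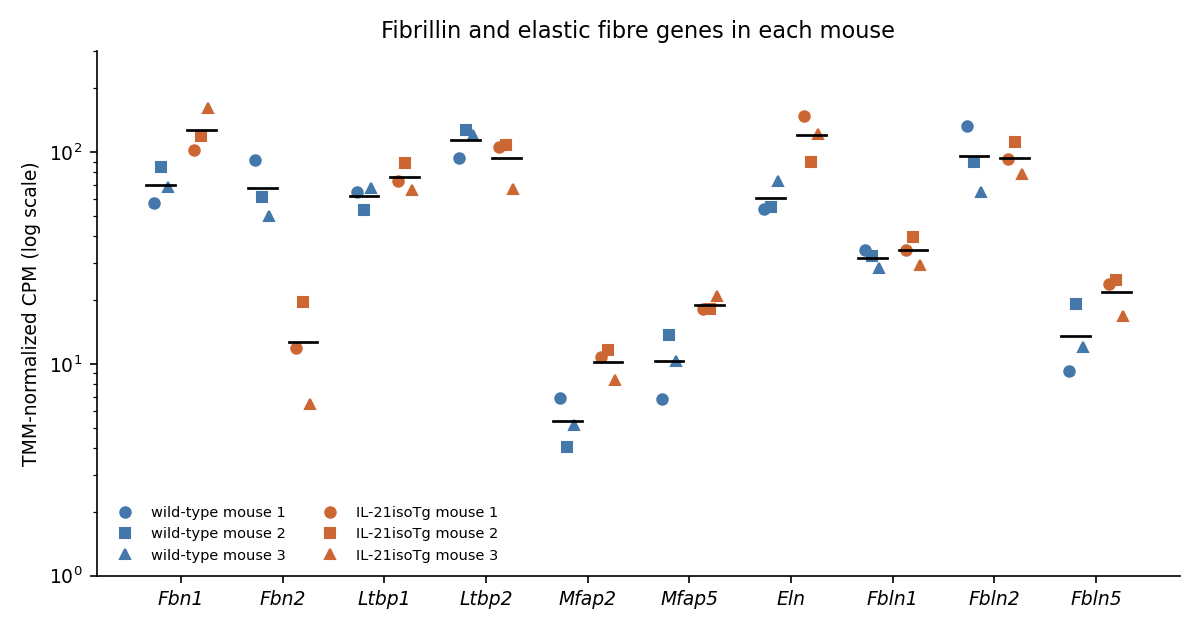
TMM-normalized CPM (log axis) of the 10 genes in each of the 6 mice. Points are single mice, blue for wild-type and orange for IL-21isoTg, and bars are group means of 3 mice. Fbn2 is the gene whose IL-21isoTg mice (6.44 to 19.6 CPM) all sit below the wild-type mice (49.7 to 91.5 CPM), while for Fbn1, Eln, Mfap2 and Mfap5 they all sit above.

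Both fibrillins were set against each other within each library, which does not depend on how libraries are scaled. The ratio of Fbn2 to Fbn1 counts was 1.6, 0.718 and 0.729 in wild-type mice 1 to 3. In IL-21isoTg mice 1 to 3 it was 0.116, 0.165 and 0.0401. Wild-type MECs thus held both fibrillin transcripts in similar numbers, with more Fbn2 than Fbn1 counts in mouse 1, and all IL-21isoTg MECs held far fewer Fbn2 than Fbn1 counts. The log2 ratio of the group means was -3.25, and it was -2.76 without wild-type mouse 1 and -2.85 without IL-21isoTg mouse 3. Of the summed counts of the 10 genes, Fbn2 made up 16.6%, 11.3% and 9.96% in wild-type mice 1 to 3 and 1.92%, 3.11% and 1.12% in IL-21isoTg mice 1 to 3.

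Elastin is the core protein of the elastic fibre. Eln takes up bases 134702593 to 134747323 of chromosome 5 (GRCm38, minus strand). Elastin transcripts were at 53.7, 54.8 and 72.7 CPM in wild-type mice 1 to 3 and 146.9, 89.7 and 121.9 CPM in IL-21isoTg mice 1 to 3. The IL-21isoTg mice were all above the wild-type mice, with IL-21isoTg mouse 2 closest to them. The log2 fold change was 0.98 (SE 0.22), from 60.4 ± 10.7 to 119.5 ± 28.7 CPM (SD, n = 3 each), and stayed between 0.81 and 1.15 with each mouse left out. An antisense gene, Gm30003, shares 267 bases of Eln exon and had 18 to 90 counts per library against 1141 to 3533 for Eln.

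The microfibril-associated proteins MAGP-1 and MAGP-2, encoded by Mfap2 and Mfap5, bind along fibrillin microfibrils. Mfap2, on chromosome 4 from 141010418 to 141015984, had 6.86, 4.04 and 5.13 CPM in wild-type mice 1 to 3 and 10.7, 11.6 and 8.39 CPM in IL-21isoTg mice 1 to 3, a log2 fold change of 0.94 (SE 0.28). Mfap5, on chromosome 6 from 122505845 to 122529290, had 6.81, 13.7 and 10.4 CPM in wild-type mice 1 to 3 and 18.0, 18.1 and 20.8 CPM in IL-21isoTg mice 1 to 3, a log2 fold change of 0.88 (SE 0.27). For both genes the genotypes did not overlap. Their counts were low, with 84 to 311 per library for Mfap2 and 151 to 487 for Mfap5.

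Of the 4 genes whose IL-21isoTg values were all above the wild-type values, Fbn1 and Mfap2 had promoter windows in the RefSeq-based table used here. These are shown so that the sequence around a start of 2 genes with the same direction of difference can be compared. The Fbn1 window lies inside the gene position given above, downstream of its 5′ end. Each window runs from 250 bases before to 50 after an annotated start on GRCm38.p6 and is written 5′ to 3′ on the strand of the gene. Capitals mark matches to the motifs searched on both strands.
Fbn1 (chr2:125506389-125506688, minus strand): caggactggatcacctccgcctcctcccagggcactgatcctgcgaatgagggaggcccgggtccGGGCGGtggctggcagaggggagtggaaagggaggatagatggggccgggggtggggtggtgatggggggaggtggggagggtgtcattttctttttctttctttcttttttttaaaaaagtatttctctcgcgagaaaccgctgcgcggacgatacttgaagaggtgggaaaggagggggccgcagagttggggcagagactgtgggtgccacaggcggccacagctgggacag
Mfap2 (chr4:141010174-141010473, plus strand): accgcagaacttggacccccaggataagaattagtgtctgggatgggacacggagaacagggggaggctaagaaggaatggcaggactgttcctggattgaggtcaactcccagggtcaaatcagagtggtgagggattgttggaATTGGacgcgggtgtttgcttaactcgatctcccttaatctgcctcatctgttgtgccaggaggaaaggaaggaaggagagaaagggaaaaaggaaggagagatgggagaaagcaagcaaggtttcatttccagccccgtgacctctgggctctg
The Fbn1 window held 1 GC box (GGGCGG) at position -185 from the start, and the Mfap2 window held 1 CCAAT box (CCAAT, here read as ATTGG) at -105. A second annotated start of Mfap2, further downstream, had a window with 2 GC boxes at -51 and -7. A GC box was found in 35.7% and a CCAAT box in 37.4% of all 32851 windows of the table. Across the 11 windows of the 7 members that were matched, 6 held a GC box and 3 a CCAAT box. The TATA box (TATAAA), the AP-1 site (TGANTCA) and the SMAD box (GTCTAGAC) were in 0 of the 11, and in 13.6%, 7.81% and 0.213% of all windows. Fbn2, Eln and Mfap5 had no entry. A match to these letters is a description of the sequence.

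Fibulins link elastin and other matrix proteins to the scaffold and to cells. Fbln5, which carries elastin onto microfibrils, was 9.29, 19.1 and 12 CPM in wild-type mice 1 to 3 and 23.7, 24.8 and 16.8 CPM in IL-21isoTg mice 1 to 3. IL-21isoTg mouse 3 lay below wild-type mouse 2, so the groups overlapped, with a log2 fold change of 0.70 (SE 0.30). Fbln1, a fibulin of basement membranes and elastic fibres, had similar levels in all mice, from 28.4 to 34.4 CPM in wild-type and from 29.4 to 39.6 CPM in IL-21isoTg MECs (log2 fold change 0.13, SE 0.17). Fbln2 was 132.8, 89.7 and 64.8 CPM in wild-type mice 1 to 3 and 92.1, 111.1 and 78.5 CPM in IL-21isoTg mice 1 to 3. Its wild-type mice spanned all of the IL-21isoTg values, and the log2 fold change of -0.03 (SE 0.27) turned to 0.29 without wild-type mouse 1. The difference in Fbln2 was thus smaller than the spread between mice of either genotype.

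The latent TGF-β binding protein LTBP-1 anchors latent TGF-β in the matrix, while LTBP-2 shares its structure but does not bind latent TGF-β. Ltbp1 was 64.9, 53.2 and 67.5 CPM in wild-type mice 1 to 3 and 72.8, 88.6 and 66.2 CPM in IL-21isoTg mice 1 to 3, which overlapped (log2 fold change 0.30, SE 0.17). Ltbp2 was 93.3, 126.9 and 120.5 CPM in wild-type mice 1 to 3 and 105.1, 108.0 and 67.1 CPM in IL-21isoTg mice 1 to 3. The low value was that of IL-21isoTg mouse 3. The log2 fold change of Ltbp2 was -0.28 (SE 0.22) and -0.09 without that mouse. The antisense gene D030025P21Rik shares 764 bases of Ltbp2 exon and had 49 to 208 counts where Ltbp2 had 719 to 2901.

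Of the 10 genes, 7 had a fitted level above wild-type in IL-21isoTg MECs and 3 below it, Fbn2, Ltbp2 and Fbln2, where 47.9% of all genes tested were higher. Their median log2 fold change was 0.50, beside -0.02 over all genes tested. The median size of the change, without its sign, was 0.78 against 0.24. The genotypes did not overlap with all IL-21isoTg values higher in 4 of the 10 (Fbn1, Eln, Mfap2 and Mfap5), where the background is 5.54% of genes tested, and with all of them lower in 1 (Fbn2), where it is 6.54%. Over all 17165 genes edgeR's quasi-likelihood test called 0 (0%) at an adjusted p under 0.05 and limma-voom also 0, and 5.82% had an unadjusted p under 0.05 in the former. DESeq2's Wald test called 0.467% and edgeR's likelihood ratio test 0.379% of genes. Because the genes were chosen with this comparison known, nothing is read from these counts.

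**Figure D2:**
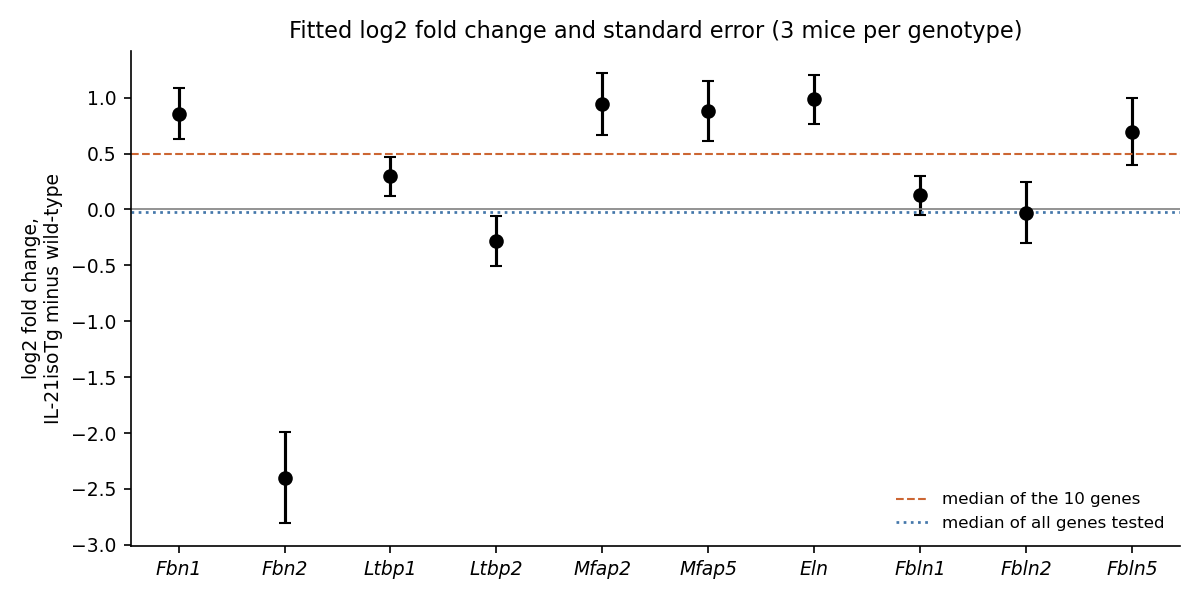
Fitted log2 fold change (IL-21isoTg minus wild-type) of each of the 10 genes. Points are estimates from 3 mice per genotype and error bars are the SE. Fbn2 at -2.40 is far below the other genes, which run from -0.28 to 0.98, and the dashed and dotted lines mark the medians of the 10 genes (0.50) and of all genes tested (-0.02).

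To order the genes by level, CPM was divided by the length of all annotated exons of the gene (CPM per kb). In wild-type MECs the highest were Fbln2 with 15 ± 5.4 and Ltbp2 with 13.9 ± 2.18 CPM per kb (SD, n = 3), which did not differ beyond their spread. All mice of both lay above those of the next gene. Eln followed with 7.46 ± 1.32, Fbln1 with 7.25 ± 0.70, Ltbp1 with 5.79 ± 0.71, Fbn1 with 5.78 ± 1.16, Fbn2 with 5.10 ± 1.63 and Mfap2 with 4.41 ± 1.17 CPM per kb. Neighbours in this order overlapped except Fbln1 and Ltbp1, whose mice did not. Mfap5 with 2.87 ± 0.97 and Fbln5 with 1.95 ± 0.73 CPM per kb were lowest and also overlapped. In IL-21isoTg MECs the order began with Eln at 14.8 ± 3.54 and Fbln2 at 14.7 ± 2.57 CPM per kb and ended with Fbn2 at 0.956 ± 0.50. Fbn2 was thus ranked 7 of 10 in wild-type and 10 of 10 in IL-21isoTg MECs, and its highest IL-21isoTg mouse (1.48) was below the lowest IL-21isoTg mouse of the next gene, Fbln5 (2.43). Eln has several transcripts that add exon length. Divided by the longest transcript alone, its mean level was 15.7 per kb in wild-type and 31.0 per kb in IL-21isoTg MECs, beside 20.0 and 19.6 for Fbln2, and Fbn2 was ranked 6 and 10.

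**Figure D3:**
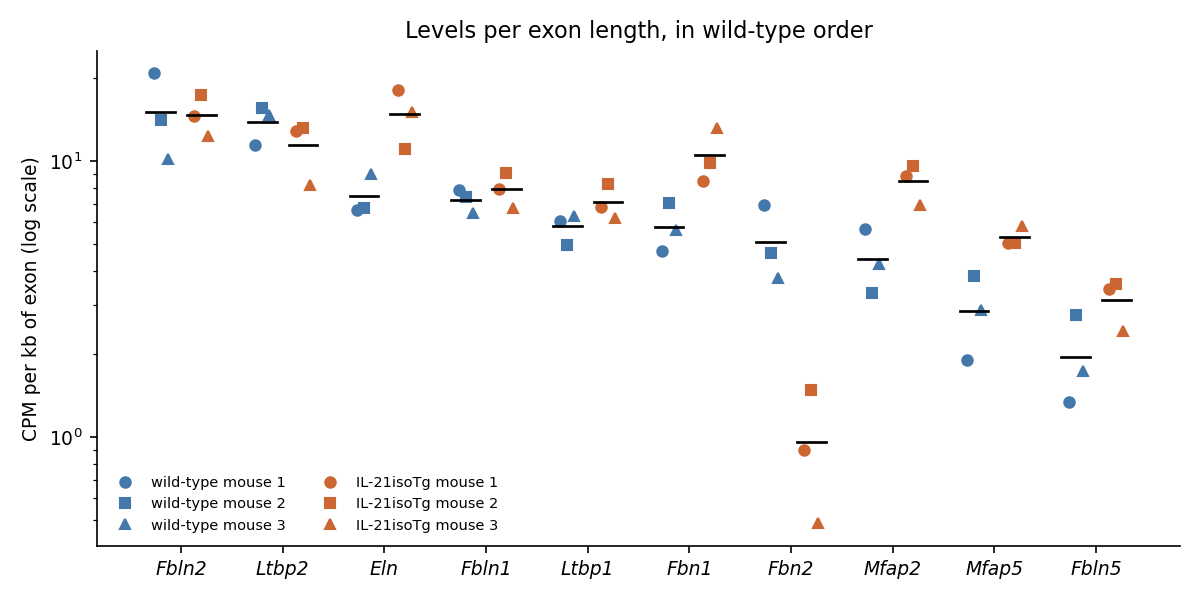
CPM per kb of annotated exon (log axis) of the 10 genes, in the order of their wild-type means. Points are single mice and bars are group means. In wild-type MECs most neighbours overlap, and in IL-21isoTg MECs Fbn2 (0.487 to 1.48) lies below the other genes.

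The spread between mice differed from gene to gene. Among wild-type mice the coefficient of variation was smallest for Fbln1 (9.64%) and largest for Fbln5 (37.5%), Fbln2 (35.9%), Mfap5 (33.6%) and Fbn2 (32.0%). Of the wild-type mice, mouse 1 had the highest level of Fbn2, Fbln1, Fbln2 and Mfap2 and the lowest of Fbn1, Eln, Fbln5, Mfap5 and Ltbp2. The same mouse also had the lowest summed fibroblast (2045 CPM) and mural cell (200.8 CPM) markers. Among IL-21isoTg mice the variation was smallest for Mfap5 (8.26%) and largest for Fbn2 (52.3%).

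Counts of each gene were set against the summed counts of the fibroblast markers in the same library. Fbn1 had 27.9, 23.3 and 20.6 counts per 1000 fibroblast marker counts in wild-type mice 1 to 3 and 19.5, 26.1 and 35.1 in IL-21isoTg mice 1 to 3, which overlapped. Eln had 26.2, 15 and 21.9 against 27.9, 19.7 and 26.6, and Mfap5 3.33, 3.76 and 3.12 against 3.43, 3.99 and 4.55, so both overlapped as well. On this scale the genotype difference of Fbn1, Eln, Mfap5, Mfap2 and Fbln5 was between 0.02 and 0.23 in log2. Fbln1, Fbln2 and Ltbp1 were lower, with log2 ratios of -0.655, -0.883 and -0.48 and overlapping groups. Fbn2 had 44.7, 16.7 and 15 counts per 1000 in wild-type mice 1 to 3 and 2.26, 4.31 and 1.41 in IL-21isoTg mice 1 to 3, a log2 ratio of the group means of -3.26. Ltbp2 had 45.6, 34.8 and 36.4 against 20.0, 23.7 and 14.7, a log2 ratio of -1.0. Relative to the fibroblast markers 0 of the 10 genes lay wholly higher, with a background of 0.454% of genes tested, and 2 wholly lower, Fbn2 and Ltbp2, with a background of 48.1%. The marker sum itself was higher in every IL-21isoTg mouse. It leaned on Col3a1, Col1a1 and Col1a2, which had log2 fold changes of 0.92, 1.02 and 0.85. These are matrix genes too, so this scale is not a measure of the number of fibroblasts. It was not computed without the collagen genes.

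Against the luminal markers, whose sum overlapped between the genotypes, Fbn2 had 12.7, 9.43 and 6.64 counts per 1000 in wild-type mice 1 to 3 and 2.15, 2.17 and 0.990 in IL-21isoTg mice 1 to 3. Eln had 7.47, 8.46 and 9.71 against 26.6, 9.93 and 18.7, so IL-21isoTg mouse 2 came close to the wild-type mice. Fbn1 was at 13.1 in the second mouse of both genotypes, the closest approach of its groups. On this scale 4 genes lay wholly higher in IL-21isoTg MECs (Fbn1, Eln, Mfap2 and Ltbp1, with a background of 2.45%) and Fbn2 alone wholly lower (background 3.64%). Against the basal markers Fbn2 had 46.1, 27.5 and 27.0 counts per 1000 in wild-type and 3.42, 6.36 and 3.10 in IL-21isoTg mice 1 to 3. Here 0 genes lay wholly higher (background 0.693%) and Fbn2, Fbln1 and Ltbp2 wholly lower (background 25.2%). Fbn1, Eln and Mfap2 overlapped between the genotypes against basal markers, with log2 ratios of the group means of 0.482, 0.514 and 0.435.

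Against the mural cell markers the log2 ratio of Fbn2 was -2.76, and its counts per 1000 were 456, 133 and 140 in wild-type mice 1 to 3 and 30.9, 48.1 and 28.4 in IL-21isoTg mice 1 to 3. That ratio leaned on wild-type mouse 1 and was -1.93 without it, as the ratio against fibroblast markers was -2.58 without it. On the mural scale Fbn2 was the member that lay wholly lower (background 2.11%), and Fbln5 and Mfap5 lay wholly higher (background 2.79%), with log2 ratios of 0.69 and 0.98. Notch3 made up the largest part of the mural sum and was the mural marker with a lower fitted level (log2 fold change -0.24). The mural scale was not computed without Notch3, so these results rest in part on that gene. Fbn1, Eln and Mfap2 had mural log2 ratios of 0.94, 0.95 and 0.70 with overlapping groups, close to their fitted changes in CPM for Fbn1 and Eln. Against the endothelial markers Fbn2 (-3.44) and Ltbp2 (-1.22) lay wholly lower (background 9%) and 0 members wholly higher (background 0.262%). The Fbn2 groups were apart on all 5 scales. Those of Fbn1, Eln and Mfap2 were apart against luminal markers and overlapped against the other 4 lists. All 5 scales divide the same Fbn2 counts, so they are not separate observations. The share of all genes tested that lay wholly lower ran from 2.11% (mural) to 48.1% (fibroblast).

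**Figure D4:**
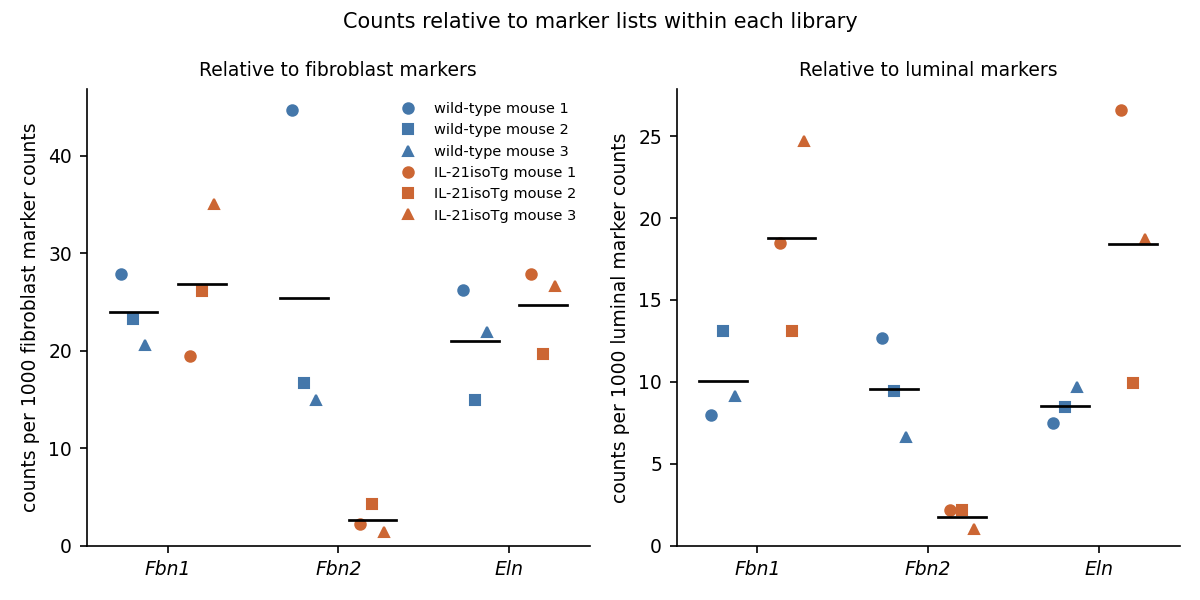
Counts of Fbn1, Fbn2 and Eln per 1000 counts of the fibroblast markers (left) and of the luminal markers (right) within each library. Points are single mice and bars are group means of 3. The Fbn2 points of IL-21isoTg mice (1.41 to 4.31 on the left, 0.990 to 2.17 on the right) lie below those of wild-type mice on both sides, and Fbn1 and Eln overlap on the left.

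Markers of other cell types moved as follows, and their part in the differences was not tested. Over all genes tested 47.9% had a higher fitted level. Of the 10 fibroblast markers 9 were higher and 1, Dcn, was lower (-0.27). The median log2 fold change of the 10 was 0.59, with 0 called (smallest adjusted p = 0.795 in edgeR's quasi-likelihood test). Pdgfra, which encodes the CD140a used for depletion, was at 34.8 ± 17.0 CPM in wild-type and 51.6 ± 8.38 CPM in IL-21isoTg MECs (SD, n = 3 each). The 8 mural cell markers, led by Notch3 and Rgs5, summed to 200.8 to 460.3 CPM in wild-type and 226.6 to 406.8 CPM in IL-21isoTg MECs. Of these 7 were higher (median log2 fold change 0.31) and 1, Notch3, was lower (-0.24). Notch3 made up most of the sum, with means of 209.0 CPM in wild-type and 177.2 CPM in IL-21isoTg MECs. The 6 endothelial markers, led by Vwf and Pecam1, summed to 82.8 to 223.9 CPM and 130.7 to 318.3 CPM and were all higher, with a median log2 fold change of 0.81. Of the 9 basal epithelial markers 8 were higher (median 0.51), and of the 12 luminal markers 5 were higher (median -0.11). Among the basal markers, Krt5, Krt17 and Krt14 had log2 fold changes of 0.18, 0.36 and 0.41, and Trp63 was the lower one (-0.17). The contractile genes Acta2, Myh11, Cnn1 and Mylk had 0.60, 0.70, 0.96 and 0.51, and Oxtr had 1.21. The 6 leukocyte markers, led by Ptprc and Cd68, summed to 6.92 to 20.9 CPM over all mice, with Itgam at 0 to 3 counts. The 5 adipocyte markers, led by Cidec and Plin1, summed to 0.902 to 2.98 CPM in wild-type mice and to 36.5, 6.07 and 1.40 CPM in IL-21isoTg mice 1 to 3, of which mouse 1 stood apart.

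The other genes of the pathway were taken from lists drawn up by role. These lists too were drawn up with earlier results of these data known, so their counts are a description and the adjusted p-values are those of the fit over all genes. Of 24 partners in the assembly of elastic fibres 23 were tested, 15 with a higher and 8 with a lower fitted level in IL-21isoTg mice (median 0.38 in log2). Over all genes tested 47.9% were higher. With edgeR's quasi-likelihood test 0 partners passed an adjusted p of 0.05 (smallest adjusted p = 0.757), and DESeq2 called 0 of them. An unadjusted p under 0.05 in edgeR's quasi-likelihood test was found for 5, beside 5.82% of all genes tested. In 7 partners the lowest IL-21isoTg value exceeded the highest wild-type value, beside 5.54% of genes tested. Lox, the lysyl oxidase that crosslinks elastin, was at 4.10, 8.31 and 8.19 CPM in wild-type mice 1 to 3 and 15.4, 10.1 and 19.9 CPM in IL-21isoTg mice 1 to 3 (log2 fold change 1.13, SE 0.36, adjusted p = 0.809 in edgeR). Loxl2, another enzyme of this family, had a log2 fold change of 0.85 (SE 0.21, adjusted p = 0.757 in edgeR). Vcan encodes versican, a proteoglycan that binds fibrillin, and had 102.0, 20.0 and 13.0 CPM in wild-type mice 1 to 3 and 13.7, 27.6 and 33.8 CPM in IL-21isoTg mice 1 to 3. Its log2 fold change of -0.85 (SE 0.73, adjusted p = 0.847 in edgeR) rested on wild-type mouse 1, the mouse that was also highest for Fbn2, and was 0.61 without it.

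The 23 genes of TGF-β and BMP signalling were all tested, with 19 higher, 4 lower and a median log2 fold change of 0.33. The share higher over all genes tested was 47.9%. In edgeR's quasi-likelihood test 0 of the 23 had an adjusted p under 0.05 (smallest 0.809), and DESeq2 also called 0. An unadjusted p under 0.05 in the former was found for 4, beside 5.82% of all genes tested. Bmp4, a ligand held by fibrillin microfibrils, had a log2 fold change of 0.99 (SE 0.58, adjusted p = 0.809 in edgeR), and the TGF-β target Ccn2 one of 0.69 (SE 0.22), with the same adjusted p. The Bmp4 groups overlapped, and its log2 fold change was 0.31 without IL-21isoTg mouse 1. Of 10 enzymes that can degrade elastin, 6 were tested and 4 were higher (median 0.31), with Ctsv not in the table under this symbol. The lysosomal protease gene Ctsl was at 229.1, 265.1 and 253.6 CPM in wild-type mice 1 to 3 and 439.2, 459.3 and 410.3 CPM in IL-21isoTg mice 1 to 3. These did not overlap, and the log2 fold change was 0.81 (SE 0.16, adjusted p = 0.523 in edgeR's test and 0.000125 in DESeq2's, with a range of 0.0697 to 0.994 over the other alternatives). Mmp2 and Ctsk followed with 0.70 (SE 0.37) and 0.57 (SE 0.29), with an adjusted p of 0.809 each in edgeR.

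**Figure D5:**
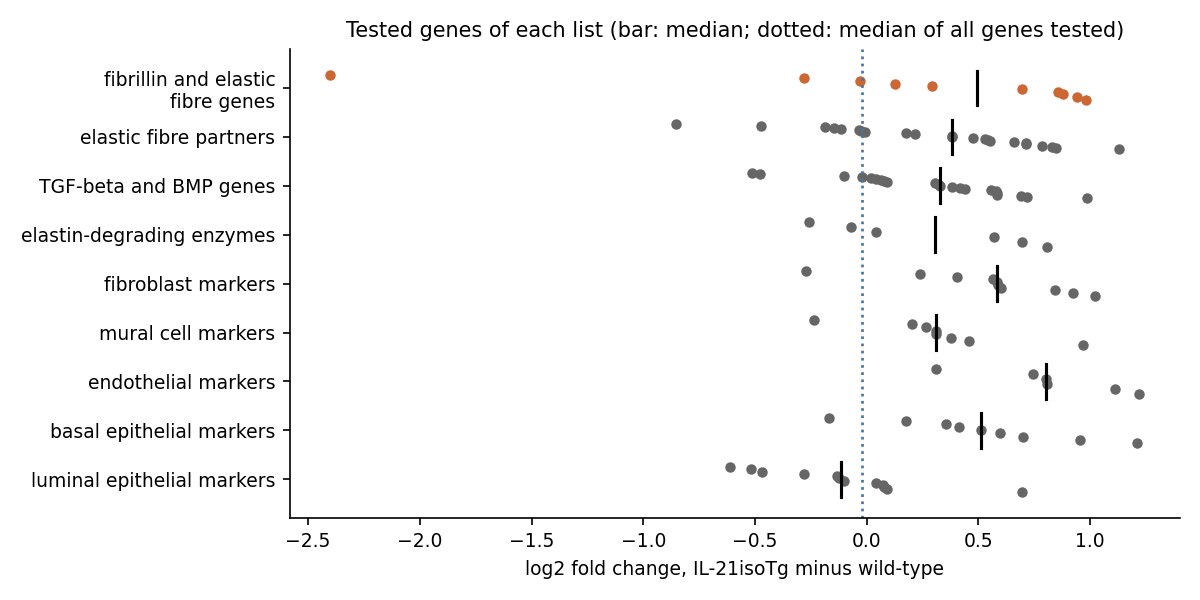
Log2 fold change (IL-21isoTg minus wild-type, x axis) of every tested gene in the fibrillin and elastic fibre list (orange) and in 8 partner and marker lists (grey), without leukocyte, adipocyte and salivary gland genes. Black bars are list medians and the dotted line is the median of all genes tested (-0.02). Fbn2 at -2.40 is the lowest point plotted. The medians of the fibroblast (0.59), endothelial (0.81) and, by little, basal epithelial (0.51) markers lie right of that of the 10 genes (0.50).

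The genes whose pattern over the 6 libraries was nearest to that of Fbn2 were found by the root mean square difference of log2 CPM, each centred on its own mean. They were Gm43197 (0.30), Gm26513 (0.36), Gsg1l (0.36), Rmi2 (0.40) and Gtse1 (0.45), with an adjusted p of 0.809 each for the genotypes in edgeR's test. The first 4 were low, at most 1.76 CPM in any library. In IL-21isoTg mice these 4 were near the limit of detection, at 0 to 0.521 CPM. Gtse1, a gene of the G2 phase of the cell cycle, had 8.93, 3.65 and 5.17 CPM in wild-type mice 1 to 3 and 1.66, 2.94 and 0.466 CPM in IL-21isoTg mice 1 to 3. For Fbn1 the nearest genes were Gm44085 (0.11), Atxn7l1os2 (0.13), 1810034E14Rik (0.13), Vit (0.14) and Gm13068 (0.15), and among the 10 genes it was Mfap5 (0.19). Mfap5 and Fbn1 thus ran closely together, while Fbn2 was at a distance of 1.82 from Fbn1 and of at least 1.20 from the other members, the smallest being that to Ltbp2.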

How the data were processed

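Poly(A)-selected, directional libraries of MEC RNA, 1 per mouse, were sequenced with paired-end reads. Per the labels, the submitters' processing notes list FastQC 0.11.7, Trimmomatic 0.38, HISAT2 2.1.0, SAMtools 1.9, featureCounts 1.6.3 and DESeq2 1.24.0 with the build mm10, and the settings are not given in the sources used here. The authors deposited raw read counts per gene, which were analysed here. They also deposited counts divided by size factors, which were not used, and a table of their own comparison with fold changes and p-values, from which the coordinates alone were used. Of 31286 gene identifiers shared with GENCODE M21 (GRCm38), 31020 had the same start and end. Genotypes were taken from the labels. No column of other samples was found (0), and no sample was left out.

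Genes were filtered with filterByExpr (minimum count 10, minimum total 15), scaled with TMM and fitted with edgeR 4.0.16 (quasi-likelihood, robust, R 4.3.3) with genotype as the only term. SE is the size of the log2 fold change divided by the square root of F. The threshold was a Benjamini-Hochberg adjusted p of 0.05. DESeq2 1.42.0, limma 3.58.1, other scalings and filters, a replicate block and leaving out each mouse were alternatives. The pipeline was tested on simulated data. Log2 CPM used a prior count of 2. At 3 counts the floor was 0.112 to 0.280 CPM, for counting error only. The members and lists were chosen with earlier results of these data known. Named genes were all 10 members, the 3 genes with the largest change in each partner list, any gene past the threshold, the 2 most abundant genes of each marker list and the 5 genes nearest to Fbn2 and Fbn1. A gene that this rule names is not reported here. Pdgfra, Itgam, Il21 and the antisense genes fall outside this rule and were chosen after seeing their values. The same holds for Col1a2, Dcn and the basal markers other than Acta2 and Krt17. The salivary gland genes, led by Bpifa2 and Amy1, were tested for 11 of 14 genes, all 11 higher (47.9% over all genes tested), with a median of 1.02 in log2. Each p-value sets the difference between the genotypes against the spread between these mice, as estimated with information from all genes tested.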

Additional observations from a re-analysis of the deposited data

How the results depend on the processing

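The median log2 fold change of the 10 genes (0.50) stayed between 0.38 and 0.54 under 17 alternatives, and the sign of 9 of the 10 genes did not change in any of them. Fbln2 was the exception, with -0.24 to 0.29. Fbn2 stayed between -2.86 and -2.10, the lower value without IL-21isoTg replicate 2. The log2 ratio of Fbn2 to Fbn1 stayed between -3.70 and -2.76 with each mouse left out. Its log2 ratio to the mural cell markers ran from -3.05 to -1.93 with each mouse left out, an alternative chosen after seeing the data, and was highest without wild-type replicate 1.

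The number of genes called was 0 with the quasi-likelihood test and also with 2 other scalings, TMM without salivary gland genes, the stricter filter, limma-voom and both other quasi-likelihood forms. It was 14 without a filter on low counts, 80 with DESeq2's Wald test and 65 with edgeR's likelihood ratio test, and 0 to 6 with each mouse left out, 6 being without wild-type replicate 3. Of the 52 partner genes tested, 0 were called, and DESeq2 called 1, Ctsl. With each mouse left out Vcan ran from -1.29 to 0.61, reversing without wild-type replicate 1 (adjusted p = 0.757 in edgeR). The causes were not tested, beyond the number of mice and genes that each alternative itself sets. The summed adipocyte markers had a log2 ratio of 3.02, and 1.05 to 3.59 with each mouse left out. The salivary gland genes had 1.04, and -0.01 without IL-21isoTg replicate 3.

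In the labels, mice carry a number from 1 to 3 within their genotype. Deviations of same-numbered mice had correlations of -0.22, 0.07 and -0.06, within the range for differently numbered mice (-0.226 to 0.233). The numbers thus showed no sign of pairing, but with so few mice this cannot show that the mice were unpaired. With the replicate block 0 genes were called, the median of the 10 genes was 0.51 and Fbn2 was -2.50. With 3 mice per genotype, small differences could not be resolved.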
